A study of Mus musculus with 4 samples.

Results

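The thyroid makes hydrogen peroxide on purpose, and the 10 genes described here encode enzymes that remove peroxide or its precursor superoxide. They are the glutathione peroxidases Gpx1, Gpx3 and Gpx4, the peroxiredoxins Prdx1, Prdx3 and Prdx5, the thioredoxin reductase Txnrd1, catalase (Cat), and the superoxide dismutases Sod1 and Sod2. They are a list of gene symbols with no threshold on their values, and 10 of 10 were found among the 16218 genes of the count table. All 10 also passed the filter on low counts. The libraries came from thyroids of NOD.H-2h4 mice, which are predisposed to autoimmune disease of the thyroid. IgG libraries came from mice that received an isotype control IgG, and anti-PD-L1 libraries from mice that received a monoclonal antibody against PD-L1, the ligand of the T cell receptor PD-1. Both groups were injected 3 times a week for 2 weeks, and each had 2 libraries. The labels give a different antibody clone string for every library in a batch field (LTF2 and LTF3 for IgG, 10F.9G2 and 10F.9G3 for anti-PD-L1), so batch and library cannot be told apart. The strings of a group differ only in the last digit, and whether they name separate clones or come from an entry error is not known. Age is not given in the labels, whose genotype field only repeats the treatment.

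As background, follicular cells iodinate thyroglobulin in a reaction that uses hydrogen peroxide made at the apical membrane by the dual oxidases. Peroxide that is not used must be removed, and thyroid tissue is rich in selenium, much of it in selenoproteins. Among the 10 enzymes, the glutathione peroxidases named here and Txnrd1 carry selenocysteine at the active site. Peroxiredoxins use a cysteine and are recharged by thioredoxin. Catalase works in peroxisomes, and the dismutases turn superoxide into hydrogen peroxide in the cytosol (Sod1) and in mitochondria (Sod2).

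Total counts ran from 75591923 to 79663374.5 per library. The whole thyroid was sequenced, so fewer cells of a type and less RNA per cell cannot be told apart in any value below. Anti-PD-L1 replicate 1 stood apart, with 4.34% of its counts in Tg (thyroglobulin) against 14.6% to 16.9% in the others. It also had 1.40 CPM of Xist, the RNA of the inactive X chromosome, against 67.7 to 72.7 CPM, and 62.6 CPM of Ddx3y, a gene of the Y chromosome, against 0.350 to 0.790 CPM. In these genes it looks like a library of the other sex, the labels give no sex, and the part of sex in the values below was not tested. CPM here are counts scaled to library size after TMM normalization, which adjusts for composition. Xist and Ddx3y were chosen after their values were seen. All 13 follicular markers were measured and none was at 0, and 0 of 13 had groups that did not overlap. Markers of macrophages, T cells, erythroid cells, adipocytes, muscle, cartilage and parathyroid were also present, so the tissue was mixed.

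The promoters of 3 of the genes are shown because they stand for 3 kinds of gene in the results. Gpx1 was the 1 enzyme whose groups did not overlap. Prdx1 has the antioxidant element bound by the transcription factor Nrf2. Sod2 has an NF-kB-type match among several GC boxes. Each run is 300 bases, 250 before and 50 from the RefSeq start onwards, on the plus strand of GRCm38.p6, and capitals mark motif matches. RefSeq starts differ from the outer gene ends given below. Gpx1 is at chr9:108338830-108339129, Prdx1 at chr4:116685349-116685648 and Sod2 at chr17:13007589-13007888.
Gpx1: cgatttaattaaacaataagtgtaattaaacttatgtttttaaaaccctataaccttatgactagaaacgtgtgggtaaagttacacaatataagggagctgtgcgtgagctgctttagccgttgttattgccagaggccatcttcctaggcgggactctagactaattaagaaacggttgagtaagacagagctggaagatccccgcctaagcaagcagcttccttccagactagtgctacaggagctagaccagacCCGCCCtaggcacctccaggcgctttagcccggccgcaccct
Prdx1: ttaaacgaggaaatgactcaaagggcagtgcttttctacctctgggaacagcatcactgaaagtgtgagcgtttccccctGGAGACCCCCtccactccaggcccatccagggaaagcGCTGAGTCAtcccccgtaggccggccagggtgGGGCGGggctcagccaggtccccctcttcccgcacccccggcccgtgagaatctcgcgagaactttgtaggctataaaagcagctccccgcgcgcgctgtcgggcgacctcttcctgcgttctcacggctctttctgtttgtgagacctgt
Sod2: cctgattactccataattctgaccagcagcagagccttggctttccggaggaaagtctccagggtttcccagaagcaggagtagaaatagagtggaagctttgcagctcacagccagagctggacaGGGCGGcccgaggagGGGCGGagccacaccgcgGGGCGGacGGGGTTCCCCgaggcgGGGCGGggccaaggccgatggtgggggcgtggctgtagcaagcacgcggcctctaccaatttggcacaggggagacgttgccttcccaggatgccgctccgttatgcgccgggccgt

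Motifs were searched on both strands in the RefSeq promoter table, in which all 10 genes were matched with 15 promoters. The antioxidant element core (TGACNNNGC) was in 3 of the 15 promoters, those of Prdx1, Sod1 and Txnrd1, and in 12.4% of all 32544 distinct promoters of this length. In Prdx1 it reads GCTGAGTCA on the printed strand, starting 133 bases before the gene. The interferon-stimulated element core (GAAANNGAA) was in 1 of the 15 (Gpx4) and in 8.53% of all promoters. The NF-kB consensus was in 2 of the 15 (Prdx1 and Sod2) and in 4.53% of all promoters, and the Sod2 match (GGGGTTCCCC) lies 83 bases before the start between GC boxes. GC boxes (GGGCGG) were in 12 of the 15 promoters and in 35.9% of all promoters. The 15 are not separate observations, since overlapping windows of Gpx4 hold the same boxes. G and C made up 53% of the median promoter and from 47% to 68.3% of the 15. The part of base content in these shares was not tested. In the Gpx1 window the GC box was the sole match, from base 9 of the transcript. None of the matches printed here overlaps another. A match is a run of letters and does not show that a factor binds.

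The enzymes were abundant and close to level across the 4 libraries. Per kilobase of exon, mean levels ran from 17.9 CPM per kb for Txnrd1 to 174 CPM per kb for Gpx4. That placed the 10 genes between the 84.3 and 98.5 percentile of the 15870 genes with a length. The order was Gpx4, Gpx3, Prdx1, Prdx5, Prdx3, Sod1, Gpx1, Cat, Sod2 and Txnrd1. Gpx3 and Prdx1 overlapped in their values over libraries, as did Gpx1 and Cat. Both pairs changed order in anti-PD-L1 replicate 1, so the order within them is not firm. Gpx3 was above Prdx1 in every library except that replicate. Gpx1 was above Cat in that replicate only, though its mean over the libraries was higher. Prdx1 and Prdx5 also overlapped over libraries, but Prdx1 was above Prdx5 within every library. The other neighbours did not overlap, though Gpx4 and Gpx3 (lowest 152 and highest 151 CPM per kb) and Sod1 and Gpx1 (lowest 68.3 and highest 67.9 CPM per kb) were separated by little. Lengths are the union of all annotated exons, 10008 bases for Sod2 and 7086 for Txnrd1, and long rarely used exons would lower a gene's value. Summed over the 10 genes, the libraries held 2177 and 2056 CPM in the IgG group and 2172 and 2096 CPM in the other, so the groups overlapped.

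**Figure D1:**
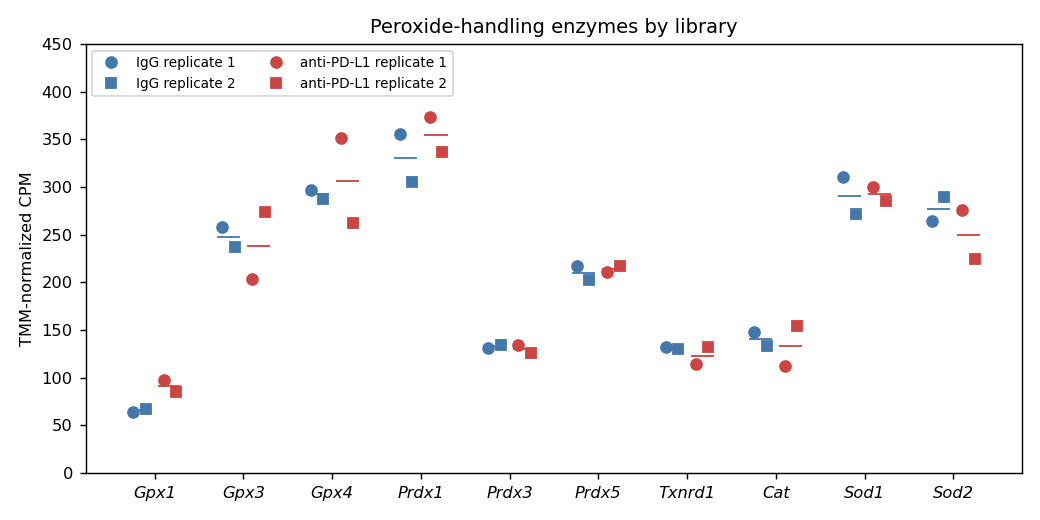
TMM-normalized CPM (linear axis) of the 10 enzymes in each library; circles are replicate 1, squares replicate 2, blue IgG, red anti-PD-L1, and lines the group means. Gpx1 is the gene whose red points (97.9 and 84.4 CPM) both lie above its blue points (63.8 and 67.3 CPM).

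With edgeR's quasi-likelihood test and Benjamini-Hochberg adjustment, 0 of 10 enzymes passed an adjusted p of 0.05, and 0% of the 16217 genes tested passed in either direction. DESeq2 called 0 of 10 as well, where it called 2.93% of all genes higher and 0.327% lower, and limma voom called 0% of all genes. At an unadjusted p under 0.05, 1 of 10 was left with each of these tools, against 6.06% of all genes with edgeR (4.96% higher and 1.10% lower). The groups did not overlap for 1 of 10 enzymes, against 29.6% of all genes (16.5% higher and 13.1% lower). The median log2 fold change was -0.012 over the 10 enzymes and 0.0002 over all genes, with 5 above 0 and 5 below. With 2 libraries per group an exact permutation test of a single value cannot go below p = 0.333.

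Gpx1, the cytosolic and mitochondrial glutathione peroxidase, had the highest fold change among the 10. It lies on chromosome 9 from 108338903 to 108340343 (GRCm38, plus strand). Its values were 63.8 and 67.3 CPM with IgG and 97.9 and 84.4 CPM with anti-PD-L1. Each anti-PD-L1 value exceeded each IgG value. The log2 fold change was 0.48 ± 0.16 (SE, n = 2 per group), a 1.39-fold higher level with a 95% interval from 1.03 to 1.88. It did not pass over all genes (edgeR adjusted p = 0.718, unadjusted 0.0387), nor with DESeq2 (adjusted p = 0.448). Leaving out 1 library at a time gave log2 fold changes between 0.36 and 0.57, and with the replicate number as a block the unadjusted edgeR p was 0.103. The log2 fold change was 0.42 without IgG replicate 1 and 0.51 without IgG replicate 2. It was 0.36 without anti-PD-L1 replicate 1 and 0.57 without anti-PD-L1 replicate 2.

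The ratio of Gpx1 to another enzyme within a library does not depend on scaling. Counts of Gpx1 divided by those of Prdx3 were 0.486 and 0.501 with IgG and 0.731 and 0.670 with anti-PD-L1. Against Sod2 the ratio was 0.241 and 0.233, then 0.355 and 0.376. All 9 such ratios had both anti-PD-L1 values above both IgG values, but they share 1 numerator and are not 9 separate observations. Gpx1 was made the numerator as the enzyme whose groups did not overlap, and the other enzymes varied less over libraries. The ratios therefore restate the separation of Gpx1 and are no added support for it. Among the 36 ratios that leave Gpx1 out, 4 had groups that did not overlap.

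**Figure D2:**
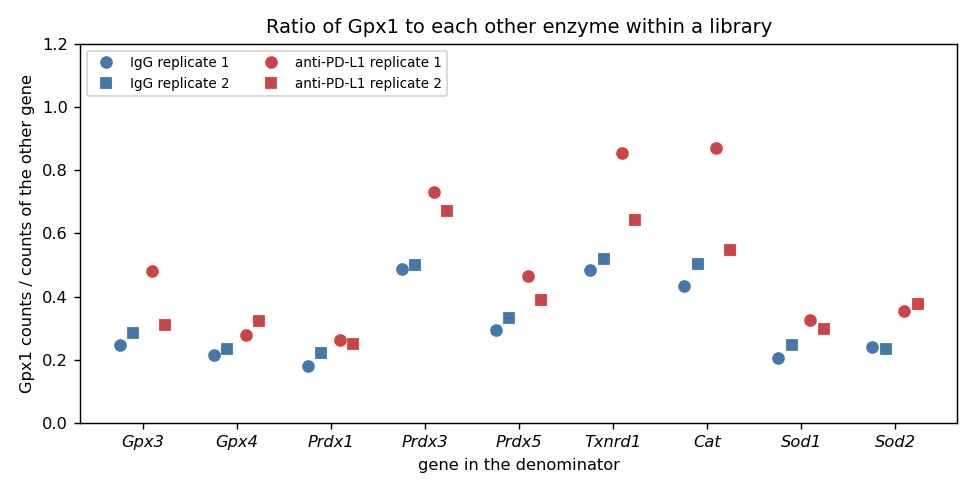
Counts of Gpx1 divided by counts of each other enzyme in the same library (linear axis), circles replicate 1 and squares replicate 2, blue IgG and red anti-PD-L1. In all 9 columns both red points lie above both blue points, with nearest values of 0.547 and 0.504 for Cat and 0.309 and 0.284 for Gpx3.

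Most markers of macrophages, which express Gpx1 as well, had the same order of groups. In the macrophage list 9 of 12 genes had groups that did not overlap, all higher, against 16.5% of all genes tested. Of the 12, 0 passed over all genes with edgeR (9 of 12 with DESeq2). Cd14 and Mertk of that list had log2 fold changes below 0, of -0.67 and -0.28. Fcgr1, an IgG receptor of macrophages, had 2.04 and 2.25 CPM with IgG and 10.9 and 10.5 CPM with anti-PD-L1. The list's summed level was 1132 and 5816 CPM with IgG and 12649 and 3229 CPM with anti-PD-L1, which overlapped, and most of it came from the lysozyme gene Lyz2. Over the other 11 genes, a split made after the values were seen, the sums were 252 and 333 CPM against 929 and 813 CPM, which did not overlap. Erythroid markers, from cells that are also rich in Gpx1, were at 502.9 and 859.7 CPM with IgG and 1349 and 706.1 CPM with anti-PD-L1, which overlapped. T cell markers were 11 of 11 higher without overlap, with 0 past the threshold with edgeR, so this order was not particular to macrophages. They summed to 32.35 and 60.51 CPM with IgG and 171.6 and 174.3 CPM with anti-PD-L1. No measured marker of these lists was at 0 (7 of 8 erythroid markers were measured, without Ahsp). The part of these cells in the Gpx1 values was not tested.

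Gpx3 encodes the secreted glutathione peroxidase, and lies on chromosome 11 from 54902453 to 54910377. It had 258 and 237 CPM with IgG and 204 and 273 CPM with anti-PD-L1. The anti-PD-L1 libraries thus held both the lowest and the highest value. Its log2 fold change of -0.06 ± 0.24 did not pass (edgeR adjusted p = 0.9997), and the 95% interval ran from 0.613-fold to 1.51-fold. Cat, the peroxisomal catalase at 103453849 to 103485160 of chromosome 2, had the same order, with 148 and 133 CPM against 112 and 154 CPM. The log2 fold change of Cat was -0.08 ± 0.23, and its interval ran from 0.616-fold to 1.46-fold. Without anti-PD-L1 replicate 1 the log2 fold changes were 0.14 for Gpx3 and 0.13 for Cat, so this library set their direction.

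Txnrd1, the cytosolic reductase that recharges thioredoxin, was also lowest in anti-PD-L1 replicate 1. It lies on chromosome 10 from 82833951 to 82897712. Values were 132 and 130 CPM with IgG and 114 and 132 CPM with anti-PD-L1. The 3 higher values were nearly the same. The log2 fold change was -0.09 ± 0.18 (edgeR adjusted p = 0.9997), and 0.010 without anti-PD-L1 replicate 1. Some of its counts end in a fraction (9874.5 in IgG replicate 2), and how the counting divided such reads is not given in the sources used here.

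Most follicular markers (10 of 13) were also lowest in that library. Pax8, a thyroid transcription factor, had 175 and 174 CPM with IgG and 107 and 250 CPM with anti-PD-L1. Iyd, the iodotyrosine deiodinase, had 533 and 440 CPM against 299 and 655 CPM. Slc26a4, also on the list, did not have this order, with 4.69 and 2.53 CPM against 4.33 and 2.65 CPM. Of the 13 follicular markers 8 were lowest in anti-PD-L1 replicate 1 and highest in anti-PD-L1 replicate 2, as were 7 of 10 adipocyte markers, 2 of the 10 enzymes (Gpx3 and Cat), and 16.9% of all genes tested. The anti-PD-L1 libraries differed 1.34-fold in Gpx3 and 1.37-fold in Cat, against 2.33-fold in Pax8. Summed CPM of the adipocyte list, from a tissue that also expresses Gpx3 and Cat, was 1004 and 827.8 in IgG and 527.7 and 1213 in anti-PD-L1. That of the follicular list was 155856 and 150399 in IgG and 46185 and 167317 in anti-PD-L1. No marker of either list was at 0, and their part in the Gpx3 and Cat values was not tested. Iyd and the other follicular genes plotted with it, Foxe1 and Nkx2-1, and the macrophage gene Csf1r were chosen after their values were seen. So were Slc26a4, Cd14 and Mertk.

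**Figure D3:**
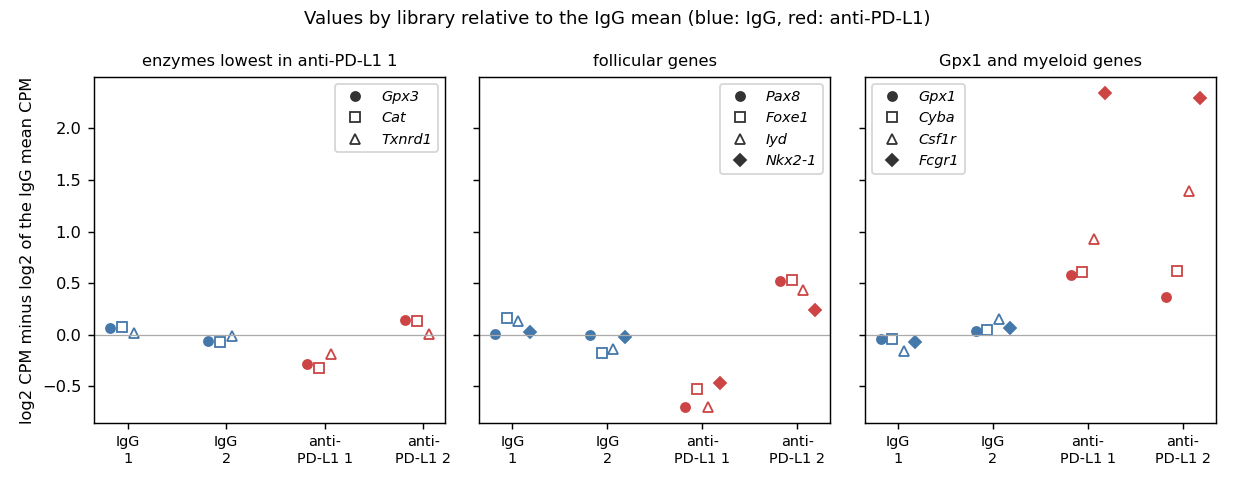
Log2 CPM minus the log2 of the IgG mean CPM, by library (blue IgG, red anti-PD-L1; marker shapes are genes, and 0 is the IgG mean). Gpx3, Cat and Txnrd1 lie below 0 in anti-PD-L1 replicate 1, and the plotted follicular genes lie lower still. Gpx1 and the plotted myeloid genes lie above 0 in both anti-PD-L1 libraries. Of genes not plotted, Slc26a4 was above its IgG mean in anti-PD-L1 replicate 1, and Cd14 and Mertk were below theirs in both.

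Gpx4, which reduces lipid hydroperoxides in membranes, went the other way between the anti-PD-L1 libraries. The gene, at 80047166 to 80056439 of chromosome 10, had 297 and 287 CPM with IgG and 352 and 262 CPM with anti-PD-L1. Anti-PD-L1 replicate 1 was the highest and replicate 2 the lowest of the 4. The change for Gpx4 on the log2 scale was 0.07 ± 0.25 with a 95% interval from 0.660-fold to 1.67-fold (edgeR adjusted p = 0.9997), and -0.16 without anti-PD-L1 replicate 1. A processed pseudogene, Gpx4-ps2, is annotated and was not among the listed genes, and copies with provisional names were not searched for any of the 10.

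Prdx3 and Prdx5 had the smallest spread over the 4 libraries among the 10 enzymes. Prdx3, the mitochondrial member at 60864051 to 60874556 of chromosome 19, had 131 and 134 CPM with IgG and 134 and 126 CPM with anti-PD-L1, a spread of 1.07-fold from lowest to highest. Prdx5, found in mitochondria, peroxisomes and cytosol and at 6906697 to 6910106 of chromosome 19, had 217 and 202 CPM against 211 and 217 CPM. Prdx1, a mainly cytosolic member at 116685544 to 116700822 of chromosome 4, had 356 and 305 CPM against 373 and 337 CPM. The groups overlapped for each of these genes. Their log2 fold changes were -0.03 ± 0.17, 0.03 ± 0.19 and 0.10 ± 0.23, and the 3 intervals together ran from 0.701-fold to 1.65-fold. Without IgG replicate 2 the values were -0.0031 for Prdx1 and -0.018 for Prdx5, and without anti-PD-L1 replicate 2 the value for Prdx5 was -0.0035. Exons of Prdx5 share 409 bases with Trmt112 on the opposite strand, and the strand setting of the counting is not given in the sources used here. Reads of these neighbours may therefore not be separated, and Trmt112 had 45.5 and 47.7 CPM with IgG and 62.7 and 44.4 CPM with anti-PD-L1.

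The superoxide dismutases had no separation either. Sod2, at 13006846 to 13040063 of chromosome 17, had 265 and 289 CPM with IgG and 276 and 224 CPM with anti-PD-L1. For Sod2 the log2 fold change was the lowest of the 10 at -0.15 ± 0.23, with a 95% interval from 0.595-fold to 1.37-fold (edgeR adjusted p = 0.9997). It was -0.30 without anti-PD-L1 replicate 1 and -0.02 without anti-PD-L1 replicate 2. Sod2 is known as a gene induced by NF-kB and inflammatory cytokines. In the same libraries all 18 genes of the interferon gamma list had groups that did not overlap, all higher, against 16.5% of all genes tested. The median log2 fold change of the 18 was 2.49, with 0 of 18 past the threshold with edgeR (17 with DESeq2). That list was written with earlier results of these data known. Whether Sod2 responded to such signals was not tested. Sod1, at 90220754 to 90226329 of chromosome 16, had 311 and 271 CPM against 300 and 285 CPM, so both anti-PD-L1 values lay between the IgG values. Its log2 fold change of 0.008 ± 0.21 was too near 0 to have a firm sign, and was -0.09 with IgG replicate 2 left out and -0.03 with anti-PD-L1 replicate 1 left out. With RLE or upper-quartile scaling, DESeq2, or Tg removed it was also below 0, under settings that shifted the median of all genes by -0.012 to -0.016.

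For most of the enzymes the libraries of a group differed by more than the groups did. The median absolute log2 difference between replicates was 0.11 in the IgG group and 0.21 in the anti-PD-L1 group, against a median absolute fold change of 0.07 over the 10 genes. For 9 of 10 the difference within at least 1 group was larger than the fold change, the exception being Gpx1. The same held for 80.3% of all genes tested, and for 85.8% of the 2296 genes with at least the lowest mean CPM of the 10. The count is thus close to that background. A difference between single libraries varies more than a difference between group means, so a majority like this is not particular to the enzymes. Over all genes tested the same medians were 0.16 and 0.33 within groups and 0.15 between them.

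Other enzymes of the same families did not pass either. Of the 7 other measured members (Gpx2, Gpx7, Gpx8, Prdx2, Prdx4, Prdx6 and Sod3), 0 passed and 0 had an unadjusted p under 0.05 with edgeR. Gpx2, the epithelial glutathione peroxidase, had 211 and 158 CPM with IgG and 116 and 146 CPM with anti-PD-L1. Its groups did not overlap, and the difference on the log2 scale was -0.49 ± 0.25 (edgeR adjusted p = 0.9997, DESeq2 adjusted p = 0.901). The value for Gpx2 was -0.29 without IgG replicate 1. Prdx4, the peroxiredoxin of the endoplasmic reticulum, had 40.1 and 36.4 CPM against 41.4 and 40.8 CPM, again without overlap and with a log2 fold change of 0.11 ± 0.14 (0.04 without IgG replicate 2). Sod3, the extracellular dismutase, had 133 and 92.7 CPM against 128 and 235 CPM, so its log2 fold change of 0.68 ± 0.38 rested on anti-PD-L1 replicate 2 (0.17 without it). Prdx6 had a log2 fold change of -0.20 ± 0.22, which was -0.36 without anti-PD-L1 replicate 1 and -0.06 without anti-PD-L1 replicate 2.

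**Figure D4:**
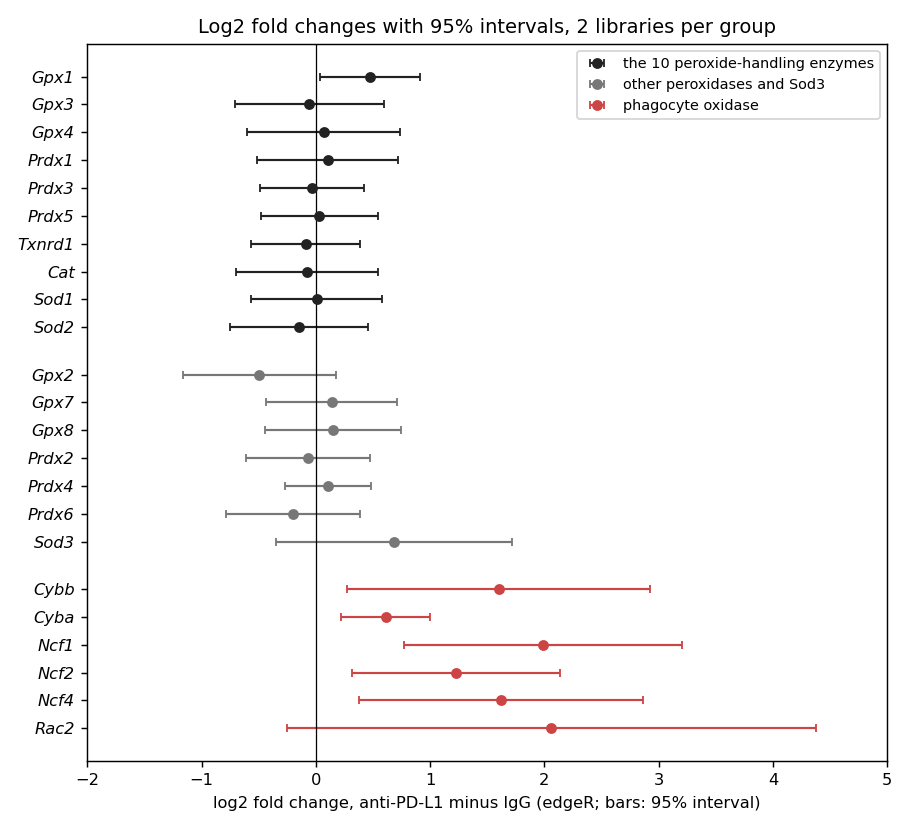
Log2 fold change, anti-PD-L1 minus IgG, with 95% intervals from edgeR for the 10 enzymes (black), other peroxidases and Sod3 (grey) and the phagocyte oxidase (red); the vertical line is no difference. Of the black intervals that of Gpx1 alone lies above 0, before adjustment for the number of genes, and 5 of the 6 red intervals do.

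The thioredoxin and glutathione genes that supply these enzymes had a median log2 fold change of -0.05, with 0 of 19 at an unadjusted p under 0.05. Txn1, the cytosolic thioredoxin, had 223 and 178 CPM with IgG and 220 and 194 CPM with anti-PD-L1. Txn2, its mitochondrial counterpart, had 129 and 133 CPM against 146 and 102 CPM. Gsr, which regenerates glutathione, had 33.3 and 29.2 CPM against 29.8 and 30.8 CPM. Values of all 3 overlapped between groups. Srxn1, the sulfiredoxin that repairs over-oxidized peroxiredoxins, had 36.4 and 32.6 CPM against 32.3 and 30.8 CPM, without overlap but with the nearest values almost equal. Txnip, which binds and inhibits thioredoxin, had 558 and 387 CPM against 387 and 615 CPM.

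Nrf2 is the factor that induces several of these enzymes under oxidative stress. The list of its targets and regulators had a median log2 fold change of -0.13, with 0 of 17 at an unadjusted p under 0.05. Without the 4 regulators (Nfe2l2, Keap1, Bach1 and Mafg), a split made after the values were seen, the median of the 13 targets was -0.27, with 11 below 0. The summed level of the 13 was 1109 and 775.9 CPM with IgG and 931 and 569.2 CPM with anti-PD-L1, which overlapped. Txnrd1 is one of these targets. Nfe2l2, which encodes Nrf2, had 69.3 and 63.3 CPM with IgG and 66.5 and 72.5 CPM with anti-PD-L1, and Keap1, its inhibitor, 103 and 93.4 CPM against 110 and 91.1 CPM. Hmox1, a heme oxygenase also high in macrophages, was the 1 gene of the list with both anti-PD-L1 values above both IgG values, at 16.0 and 14.0 CPM against 18.5 and 24.7 CPM. Its log2 fold change was 0.53 ± 0.21 (edgeR adjusted p = 0.897), 0.72 without anti-PD-L1 replicate 1 and 0.29 without anti-PD-L1 replicate 2. In the other direction 4 genes of the list did not overlap, Srxn1, Gsta1, Abcc1 and Mafg. Groups did not overlap for 29.6% of all genes tested (16.5% higher and 13.1% lower), so both directions together were close to that background. Abcc1, an exporter of glutathione conjugates, had 76.2 and 70.2 CPM against 63.2 and 48.8 CPM (-0.39 ± 0.19 on the log2 scale, edgeR adjusted p = 0.9997). The Abcc1 value was -0.23 without anti-PD-L1 replicate 2 and -0.59 without anti-PD-L1 replicate 1.

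Selenoprotein genes gave no call. Of the 8 genes for making and inserting selenocysteine, 0 had an unadjusted p under 0.05. Both anti-PD-L1 values were above both IgG values for 3 of the 8, against 16.5% of all genes tested. Scly, which recovers selenium from selenocysteine, had 15.2 and 16.8 CPM against 20.8 and 21.1 CPM (0.39 ± 0.15 on the log2 scale, edgeR adjusted p = 0.873). Sephs2, the selenophosphate synthetase that is itself a selenoprotein, had overlapping values of 56.6 and 60.9 CPM against 58.8 and 61.8 CPM. Among 18 other selenoproteins, a list that also holds Sephs2 and Gpx2, groups did not overlap for 5 higher and 4 lower genes. The shares over all genes tested were 16.5% higher and 13.1% lower. The median log2 fold change of the list was 0.04. Selenop, the plasma selenium carrier, had 186 and 201 CPM against 253 and 269 CPM (0.43 ± 0.20 on the log2 scale, edgeR adjusted p = 0.995), and did not overlap, as with Gpx1. The deiodinase Dio1, also a selenoprotein, had 201 and 137 CPM against 137 and 269 CPM.

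Genes that make peroxide fall into a phagocyte and a follicle list. The phagocyte oxidase genes were 6 of 6 higher without overlap (16.5% of all genes tested), with a median log2 fold change of 1.61. Of the 6, 5 had an unadjusted edgeR p under 0.05, against 4.96% of all genes in that direction. None of the 6 passed over all genes with edgeR, and 3 passed with DESeq2. Cybb, the catalytic subunit, had 16.8 and 42.3 CPM with IgG and 76.9 and 102 CPM with anti-PD-L1 (1.60 ± 0.49 on the log2 scale, edgeR adjusted p = 0.618). The Cybb value was 2.41 without IgG replicate 2 and 1.06 without IgG replicate 1. Cyba, its partner subunit, had 57.9 and 61.4 CPM against 90.8 and 91.5 CPM (0.61 ± 0.15 on the log2 scale, edgeR adjusted p = 0.411). Ncf1, a cytosolic organizer of the complex, differed by 1.99 ± 0.45 on the log2 scale (edgeR adjusted p = 0.39).

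In the follicle list, which holds the dual oxidases, their maturation factors and Nox4, 0 of 6 had an unadjusted p under 0.05, and the median was -0.22. Duox2 had 56.0 and 34.1 CPM with IgG and 16.7 and 51.8 CPM with anti-PD-L1. Duox1 had 33.1 and 13.4 CPM against 13.4 and 7.44 CPM, with the nearest values of the groups almost equal and a difference of -1.16 ± 0.55 on the log2 scale (edgeR adjusted p = 0.9997). It was -0.39 without IgG replicate 1. Duoxa1, its maturation factor, had 24.1 and 9.65 CPM against 11.6 and 6.41 CPM. Both were highest in IgG replicate 1 and lowest in anti-PD-L1 replicate 2, as was the summed level of 9 squamous epithelium markers, at 12781 and 3419 CPM against 5772 and 90.7 CPM. The part of that epithelium in the Duox1 and Duoxa1 values was not tested. Tg itself had a log2 fold change of -0.54 ± 1.06, which was 0.11 without anti-PD-L1 replicate 1. The 10 enzymes spread from 1.07-fold (Prdx3) to 1.53-fold (Gpx1) between the lowest and highest of the 4 libraries.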

How the data were processed

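RNA was poly(A)-selected and sequenced as paired ends on an Illumina NovaSeq, per the labels' protocols. The authors deposited 1 table of unnormalized expected counts, with genes by symbol and 1 column for each of the 4 libraries. BWA and the mm10 build are named per the submitters' processing notes, without role or version. How reads were assigned to genes (program, annotation, strand, filter) is not given in the sources used here. Every listed gene reached a count of 100 in at least 1 library, 3328 genes had a fractional count, and 13 blank cells in 12 genes were read as 0.

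Expected counts were rounded. edgeR 4.0.16 in R 4.3.3 was used with filterByExpr (16217 genes kept), TMM factors, robust dispersions and the two-sided quasi-likelihood F test on group, adjusted by Benjamini-Hochberg over all genes, with a threshold of 0.05. Each SE was derived from the log2 fold change and its F statistic (size over root F), and each 95% interval uses the t distribution with the moderated degrees of freedom and is not adjusted for the number of genes. The residual degrees of freedom were 2 and the median biological coefficient of variation 24.4%. Replicates are separate libraries with separate titles, and nothing says how mice were assigned, so p-values measure only the spread between these samples. Replicates differed by more than sampling noise (chi-square over its degrees of freedom was 321 for IgG and 1056 for anti-PD-L1). Counting error at this depth is small beside that spread.

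Lengths and coordinates came from GENCODE M21 on GRCm38, the assembly also called mm10, and promoters from RefSeq on GRCm38.p6. The members, lists and tests were chosen with earlier results of these data known. Genes named outside the 10 are a written list of reaction partners and reference genes (Tg, Pax8 and Cybb among them) and, per list, the 3 of smallest p and the most abundant, unless said otherwise. Alternatives were RLE, upper-quartile and library-size scaling, Tg left out, no filter, a stricter filter (1 CPM in 2 libraries and a mean count of 20), DESeq2 1.42.0, limma voom (limma 3.58.1), the replicate number as a block, and each library left out. When a library was left out, the lone sample of its group was taken to vary like the other group. The steps were tested on simulated data. Some items covered by these lists and motifs are not reported here.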

Additional observations from a re-analysis of the deposited data

How the results depend on the processing

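The count of enzymes past the threshold was 0 under every alternative run, and the count over all genes was 0 except with DESeq2, which called 528 genes (475 higher and 53 lower). The cause of that difference was not tested. The median log2 fold change of the 10 enzymes was between -0.027 and 0.0072 under the other settings and between -0.05 and 0.026 with 1 library left out. Gpx1 kept its direction under every alternative (0.36 to 0.57). Sod1, at 0.0077, was -0.0037 with RLE scaling, -0.0042 with upper-quartile scaling, -0.0081 with Tg left out and -0.0038 with DESeq2. These settings shifted the median of all genes by -0.012 to -0.016, which is more than the Sod1 value. Leaving out single libraries, log2 fold changes ran from -0.33 to 0.13 for Cat, -0.30 to 0.14 for Gpx3, -0.16 to 0.25 for Gpx4, -0.0031 to 0.20 for Prdx1, -0.018 to 0.063 for Prdx5, -0.087 to 0.089 for Sod1, -0.20 to 0.010 for Txnrd1 and -1.77 to 0.11 for Tg. The shared replicate numbers do not show that libraries are paired: deviations of same-numbered libraries correlated across genes at r = 0.0998, and 2 pairs allow no more. With the replicate block, 0 genes passed, 1060 genes had an unadjusted p under 0.05 (982 without it), and the Gpx1 log2 fold change was 0.47. Among the scalings, the median of all genes moved most with plain library sizes, by 0.020. With 2 libraries per group the intervals of the other 9 enzymes include 0, so no difference from 0 was detected for them. The Gpx1 interval lay above 0 only before adjustment for the number of genes, and Gpx1 did not pass (edgeR adjusted p = 0.718).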

Other observations

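Gsta4, a glutathione transferase that detoxifies lipid peroxidation products, varied widely over libraries. It had 399 and 136 CPM with IgG and 291 and 49.2 CPM with anti-PD-L1, and the groups overlapped. The summed level of 9 squamous epithelium markers had the same order, at 12781 and 3419 CPM in IgG and 5772 and 90.7 CPM in anti-PD-L1. Nqo1, a quinone reductase induced by Nrf2, had 25.7 and 17.1 CPM in IgG and 19.8 and 7.80 CPM in anti-PD-L1, again lowest in anti-PD-L1 replicate 2. Nqo1 was chosen after its values were seen. The part of squamous epithelium in these values was not tested.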
